A study of Mus musculus with 4 samples.

Results

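The genes of the cytosolic translation initiation factors (eIFs) were examined in TT2 mouse embryonic stem cells depleted of Hnrnpk. They were chosen by symbol alone, as every gene in the table whose name starts with Eif and a digit from 1 to 6. The eIF2 alpha kinases, the Argonaute genes listed under Eif2c symbols, the Y-linked Eif2s3y and pseudogene names were left out. The rule gave 49 of the 22138 genes in the table. The rule reads symbols and no values, although earlier results of these data were known when the genes were chosen.

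TT2 is a female line of C57BL/6xCBA background, grown without feeder cells in medium with serum and LIF, a cytokine that keeps such cells undifferentiated. RNA was sequenced from 2 libraries of cells given control siRNA and from 2 libraries of cells given siRNA against Hnrnpk (the knockdown), the gene of the RNA- and DNA-binding protein hnRNP K. All 4 samples came from this line without any engineered allele in their labels, and were transfected first with 100 nM and, 24 hours later, with 50 nM of the same siRNA, and were harvested about 72 hours after the second transfection. The title of the series links hnRNP K to silencing by the histone methyltransferase SETDB1, and the comparison asked here is how initiation factor transcripts differed between the groups. The labels number the replicates without naming separate cultures, so p-values measure the spread between these libraries, which may be partly technical.

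As background, initiation brings the initiator methionyl-tRNA and the small ribosomal subunit to the start codon. The GTPase eIF2 delivers the tRNA and is recharged by the exchange factor eIF2B, while eIF1, eIF1A, eIF3 and eIF5 organise the scanning subunit. The eIF4F complex, made of the cap-binding eIF4E, the helicase eIF4A and the scaffold eIF4G, recruits the mRNA, and the 4E-BP proteins block eIF4E when mTORC1 is inactive. In embryonic stem cells overall protein synthesis is known to be low, and both 4E-BPs and the eIF4G-like protein encoded by Eif4g2 have been studied for their part in pluripotency and differentiation.

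The libraries showed the labelled perturbation and the labelled cell type. Hnrnpk was listed at 236 and 226 RPKM (reads scaled to transcript length and library size) after control siRNA and at 68.0 and 70.5 RPKM after Hnrnpk siRNA. All 16 embryonic stem cell markers passed the filter on low values, with summed levels of 4537 to 4683 RPKM after control siRNA and 5356 to 5702 RPKM after Hnrnpk siRNA. Dppa5a alone was at 1320.3 and 1276 RPKM and then at 2164 and 2451 RPKM, a larger difference than that of the whole sum. At an adjusted p under 0.05 in limma, 5 of these markers were higher and 6 lower. Among them were Tbx3 (log2 change 1.97), Nanog (0.82), Dppa3 (-0.82) and Sox2 (-0.53), and Pou5f1 was not called (-0.15, adjusted p = 0.137). Of 12 fibroblast and feeder markers, 7 lay under the filter, none was at 0 in all libraries, and the list summed to 10.7 to 11.8 RPKM in the control libraries and to 6.45 to 6.47 RPKM in the others. Thy1 alone was at 6.90 and 5.20 RPKM and then at 2.22 and 2.28 RPKM. Of the 5 tested, 3 were lower, 0 higher and 2 not called. Markers of differentiated derivatives moved with the groups: of 13 tested, 10 were higher and 3 lower after Hnrnpk siRNA, where the same test called 32.2% of all genes higher and 35.0% lower. Those of lowest p were Gata6 (log2 change 3.66), Gata3 (2.43), Dab2 (1.70) and Hand1 (1.58). The 18 identifiers listed summed to 41.5 and 47.9 RPKM against 102 and 107 RPKM. The part of these markers in the results below was not tested, and in bulk RNA fewer cells of a type and less RNA per cell cannot be told apart. Relative depth, read from the steps between low values and set to 1 in control replicate 1, was 0.982, 0.891 and 0.882 in control replicate 2 and Hnrnpk siRNA replicates 1 and 2.

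Initiation factor transcripts were abundant and differed by small amounts. Their levels ran from 0.106 to 1400 RPKM as means over the 4 libraries, with a median of 107 RPKM over the 49 genes, and 25 of them had a mean of at least 100 RPKM. Summed over the 49 genes the level was 8445 and 8786 RPKM with control siRNA and 8872 and 9228 RPKM after knockdown. The Hnrnpk siRNA sums lay above both control sums, by 5.05% on the means, and the exact two-sided permutation test gave p = 0.3333, the smallest that 2 against 2 libraries allow. The RPKM summed over the whole table was also higher, by 6.34%, and the members' share of it overlapped between groups, at 2.35% and 2.42% in the control libraries and 2.35% and 2.36% after knockdown. Under quantile normalization the summed level turned to a ratio of 0.937.

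Of the 49 genes, 47 had a mean of at least 0.5 RPKM and were tested with limma on log2(RPKM + 0.5) across all 12486 genes that passed this filter. At a Benjamini-Hochberg adjusted p under 0.05, 13 members were higher and 9 lower after knockdown, 22 of 47 or 46.8%, a split that became 10 higher and 13 lower under quantile normalization. Over all genes tested the same rule called 67.2%, with 32.2% higher and 35.0% lower. Groups did not overlap in 32 of the 47 members (68.1%) and in 84.7% of all genes tested. No member reached a log2 change of 1 in size, a size that 8.51% of all genes tested reached with a call. The median size of the log2 change was 0.15 over the members and 0.32 over all genes tested, and 45 of the 47 members (95.7%) stayed under 0.5 against 68.3% of all genes. The genes tested as a whole were not matched to the members for level, with a median of 9.38 RPKM against 107 RPKM. The signed median was 0.06 for the members and -0.01 for all genes. These shares are given as a description, since a list of genes was not tested as a set. The plot of all members by role shows that called rises and called falls both occurred within eIF1 with eIF1A, eIF2B, eIF3, the eIF4E-binding repressors and eIF4G, but not within the other role groups.

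**Figure D1:**
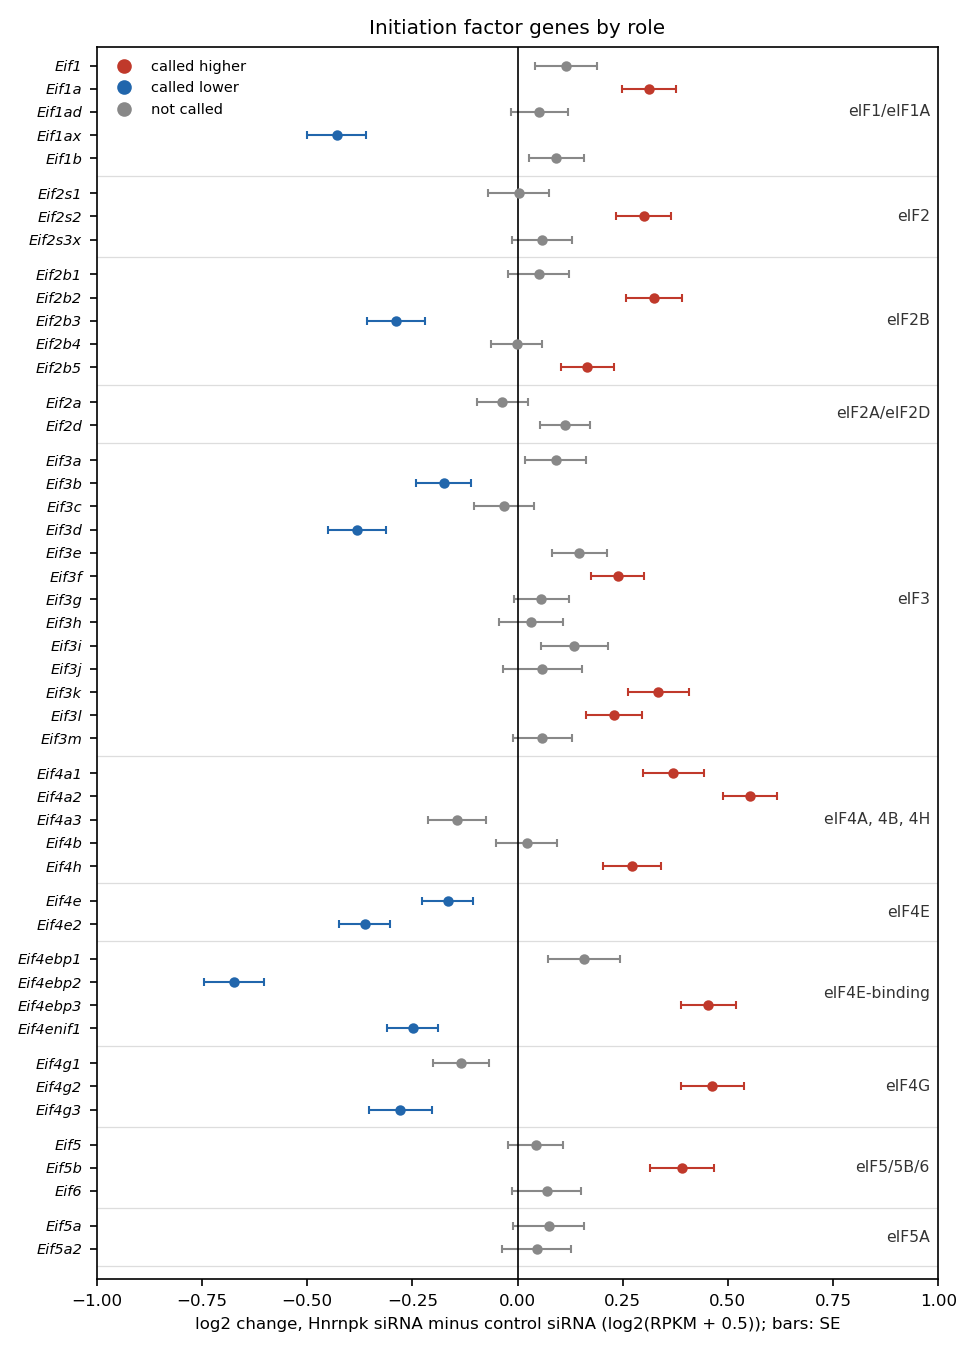
Log2 change (Hnrnpk siRNA minus control siRNA, on log2(RPKM + 0.5)) of the 47 tested initiation factor genes, ordered by role, with bars of 1 SE from limma and colours for the call at an adjusted p under 0.05. All points lie between -0.67 (Eif4ebp2) and 0.55 (Eif4a2), with 13 called higher and 9 called lower.

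Among genes that were called and had a single annotated start, Eif4ebp2, Eif1ax and Eif3d had the largest falls and Eif4a2, Eif5b and Eif4a1 the largest rises. Their promoters are shown as examples of called members. Eif4g2 (log2 change 0.46) and Eif4ebp3 (0.45) rose more than Eif5b (0.39) and Eif4a1 (0.37), but had no promoter sequence to show. The sequences are from RefSeq (GRCm38.p6, which differs from the mm9 build named in the submitters' processing notes), from 150 bases before to 20 bases after the annotated start, 5′ to 3′ on the gene's strand. Capitals mark matches on either strand to the 7 motifs searched.
Eif4ebp2 (chr10:61452650-61452819, minus strand): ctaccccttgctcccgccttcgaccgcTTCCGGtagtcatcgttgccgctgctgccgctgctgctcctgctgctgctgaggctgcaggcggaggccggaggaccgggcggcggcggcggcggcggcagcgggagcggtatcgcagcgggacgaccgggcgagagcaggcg
Eif1ax (chrX:159372028-159372197, plus strand): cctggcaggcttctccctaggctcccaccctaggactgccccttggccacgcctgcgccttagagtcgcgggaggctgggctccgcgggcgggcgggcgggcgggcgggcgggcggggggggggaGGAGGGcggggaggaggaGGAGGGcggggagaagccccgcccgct
Eif3d (chr15:77970805-77970974, minus strand): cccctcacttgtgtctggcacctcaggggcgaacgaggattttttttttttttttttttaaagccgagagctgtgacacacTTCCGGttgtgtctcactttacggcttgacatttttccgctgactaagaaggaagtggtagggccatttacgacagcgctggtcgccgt
Eif4a2 (chr16:23107318-23107487, plus strand): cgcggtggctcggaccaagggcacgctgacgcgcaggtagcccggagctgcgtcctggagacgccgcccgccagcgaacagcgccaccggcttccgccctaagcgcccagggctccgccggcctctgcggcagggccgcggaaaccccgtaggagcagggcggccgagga
Eif5b (chr1:37997860-37998029, plus strand): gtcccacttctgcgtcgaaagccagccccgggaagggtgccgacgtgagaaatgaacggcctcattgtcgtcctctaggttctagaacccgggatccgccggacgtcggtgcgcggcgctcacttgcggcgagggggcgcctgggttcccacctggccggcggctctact
Eif4a1 (chr11:69672404-69672573, minus strand): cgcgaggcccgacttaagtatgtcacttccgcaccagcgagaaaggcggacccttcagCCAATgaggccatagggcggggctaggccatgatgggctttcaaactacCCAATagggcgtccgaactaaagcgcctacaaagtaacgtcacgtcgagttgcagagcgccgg

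The capitals are an ETS core (CCGGAA) in Eif4ebp2 and Eif3d, read there on the other strand, a pair of CT element cores (CCCTCC) in Eif1ax, also on the other strand, the kind of C-rich sequence that hnRNP K is known to bind, and a pair of CCAAT boxes in Eif4a1. The printed stretches of Eif4a2 and Eif5b held none of the motifs. The other motifs were the E-box (CACGTG), bound by MYC and TFEB factors, the NRF1 core (GCGCATGC), the ATF4 core (TGATGCAA) and the TATA box (TATAAA), and no motif lies within another. In the full window of 250 bases before to 50 after the start, taking the first listed start of a gene, 38 members had a sequence. The CT element core was in 15 of the 38 (39.5%) and in 38.5% of the 27025 genes in the table of promoters. The ETS core was in 18 members (47.4%) against 15.2% of all genes, and the E-box in 8 (21.1%) against 7.24%. The 27025 genes were not limited to those tested here or matched to the members for level. The median level was 107 RPKM for the members and 9.38 RPKM for all genes tested. Among members called higher the E-box was in 4 of 10 windows (Eif3f, Eif3k, Eif4a1 and Eif4h) and the CCAAT box in 6 of 10, and among those called lower in 0 of 8 and 1 of 8. The ETS core was in 4 of 10 and 5 of 8, the CT element core in 3 of 10 and 3 of 8, the NRF1 core in 2 of 10 and 0 of 8, and the TATA box in 1 of each. These differences were not tested. The ATF4 core was in none of the 38 and in 0.929% of all genes. The NRF1 core was in 3 members (7.89%) against 2.81% of all genes, the TATA box in 3 (7.89%) against 14.2%, and the CCAAT box in 11 (28.9%) against 37.9%. A match describes letters and does not show binding.

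The genes of eIF1A moved in opposite directions. This factor, which stabilises the scanning ribosome, is encoded by Eif1a and the X-linked Eif1ax. Eif1a was at 85.1 and 91.2 RPKM with control siRNA and at 110.1 and 109 RPKM after knockdown. It rose (log2 change 0.31, SE 0.0639, limma adjusted p = 0.0018), by less with GC trends removed (0.16, adjusted p = 0.0336). Eif1ax was at 42.3 and 46.9 RPKM and then at 32.2 and 33.7 RPKM, and fell (log2 change -0.43, SE 0.0707, adjusted p = 0.000472). Neither gene's groups overlapped. The ratio of Eif1a to Eif1ax was 2.01 and 1.94 in the control libraries and 3.42 and 3.23 after knockdown, and the Eif1a share of the pair went from 66.4% ± 0.563 to 76.9% ± 0.728 (SD, n = 2 each). The pair as a whole was not tested.

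Eif1, which keeps the scanning complex from stopping at wrong codons, was at 178 and 180.0 RPKM with control siRNA and 183 and 206 RPKM after knockdown. It was not called (log2 change 0.12, adjusted p = 0.189) but was called without Hnrnpk siRNA replicate 1 (0.20, adjusted p = 0.0469). Its transcript shares 49.8% of its length with 13 other annotated genes at 95% identity or more, so its level is uncertain. The paralog Eif1b had 27.5 and 25.7 RPKM, then 28.3 and 28.5 RPKM (log2 change 0.09, adjusted p = 0.235). The Eif1 share of that pair overlapped between groups, at 86.6% and 87.5% against 86.6% and 87.8%. Eif1ad, whose product has an eIF1A-like domain, was at 49.5 and 54.8 RPKM and at 54.3 and 53.7 RPKM (log2 change 0.05, adjusted p = 0.52).

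A set of eIF1A-like genes of the 2-cell embryo, kept under other symbols and so not members, had higher levels after knockdown. All 6 identifiers tested were called higher, from Gm5662 (log2 change 4.38, SE 0.117, limma adjusted p = 2.04e-08) and Gm8300 (3.72, SE 0.0991) to 1 of the identifiers of BB287469 (1.68, SE 0.106). Their summed level went from 0.418 and 0.422 RPKM to 31.8 and 38.3 RPKM. That sum was just below the level of Eif1ax in Hnrnpk siRNA replicate 1 and above it in replicate 2. The copies resemble each other, so their reads could be split between them or counted once for each copy, which would raise the sum. How such reads were counted is not known, so the comparison of the sum with Eif1ax is uncertain. The list was chosen with the rise of these genes already known.

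For eIF2, only the beta subunit gene was called. Eif2s2 was at 80.1 and 84.7 RPKM with control siRNA and 98.2 and 105 RPKM after knockdown, a rise of 0.30 (SE 0.0658, limma adjusted p = 0.00275) that became 0.18 with GC trends removed (adjusted p = 0.0343). Eif2s1, the alpha subunit that stress kinases phosphorylate, was at 111 and 124 RPKM and at 114 and 121 RPKM, so the groups overlapped. Its log2 change of 0.0024 had an SE of 0.0733, and became -0.10 under quantile normalization. The gamma subunit gene Eif2s3x was at 20.1, 20.3, 20.1 and 22.1 RPKM (log2 change 0.06, adjusted p = 0.484). Its Y-linked homologue Eif2s3y, left out by the rule, was listed at 0.209 to 0.276 RPKM in this female line. The difference between Eif2s2 and the other subunits was not itself tested. The transcripts of Eif2s2, Eif2s3x and Eif2s1 share 39.0%, 37.0% and 27.9% of their length with other annotated genes, so their levels are uncertain.

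The 5 eIF2B subunit genes split 3 ways. Eif2b2, of the regulatory subcomplex, was at 64.7 and 65.5 RPKM with control siRNA and 78.2 and 85.2 RPKM after knockdown, a rise of 0.32 (SE 0.0658, adjusted p = 0.00172). Eif2b5, the catalytic subunit, was at 89.0 and 90.3 RPKM and then at 98.0 and 103 RPKM. Its rise was small (log2 change 0.17, SE 0.0623, limma adjusted p = 0.038) and was not called under 6 of the 14 alternatives, among them quantile normalization (0.08, adjusted p = 0.221) and the omission of control replicate 1, control replicate 2 or Hnrnpk siRNA replicate 2 (adjusted p = 0.119, 0.0759 and 0.192). Eif2b3, the gamma subunit, was at 15.0 and 16.0 RPKM and then at 12.4 and 12.8 RPKM, a fall (log2 change -0.29, SE 0.0694, adjusted p = 0.00458). Eif2b1 (56.3 and 61.4, then 58.1 and 63.9 RPKM) and Eif2b4 (45.8 and 47.6, then 46.5 and 46.7 RPKM) overlapped between groups. Eif2a and Eif2d, whose products can bring initiator tRNA by routes outside eIF2, did not pass the test. Eif2a was at 39.9 and 41.3 RPKM, then 39.5 and 39.6 RPKM. Eif2d was at 41.2 and 41.0 RPKM, then 44.4 and 44.6 RPKM (log2 change 0.11, adjusted p = 0.121).

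The complex eIF3, the largest initiation factor, binds the small subunit and bridges it to eIF4G. Its 13 genes took 3380 and 3495 RPKM together in the control libraries and 3517 and 3622 RPKM after knockdown, a difference of 3.84% on the means. Within it 3 genes rose (Eif3k, Eif3l and Eif3f), 2 fell (Eif3d and Eif3b) and 8 were not called.

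Eif3k, a peripheral subunit gene, was at 365 and 377 RPKM and then at 450 and 487 RPKM (log2 change 0.33, SE 0.0724, limma adjusted p = 0.0025). Its partner Eif3l was at 387 and 394 RPKM and then at 456 and 459 RPKM (0.23, SE 0.0671, adjusted p = 0.0127). Eif3f was at 193 and 189 RPKM and then at 221 and 229 RPKM (0.24, SE 0.0636, adjusted p = 0.00799). In all 3 the groups stood apart. The smaller rises depended on the processing: under quantile normalization Eif3l (0.10, adjusted p = 0.148) and Eif3f (0.13, adjusted p = 0.0584) were not called, and Eif3k was called at 0.19 (adjusted p = 0.0108). Eif3l was also not called without control replicate 1 (adjusted p = 0.0675).

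Eif3d, which can itself bind the cap of selected mRNAs, had the clearest fall in the complex, from 421 and 442 RPKM to 325 and 337 RPKM (log2 change -0.38, SE 0.0690, limma adjusted p = 0.000849). It was called under all 14 alternatives. An annotated gene on the opposite strand, Gm17638, overlaps 43.3% of the exonic bases of Eif3d, and without stated strandedness reads of both cannot be told apart. Eif3b, a core scaffold subunit, was at 291 and 305 RPKM and then at 265 and 262 RPKM (-0.18, SE 0.0658, adjusted p = 0.0377). That fall was not called under 8 of the 14 alternatives, with median-ratio scaling (-0.17, adjusted p = 0.0517) and the omission of each library among them. Its log2 change was -0.29 under quantile normalization and -0.11 when GC trends were removed.

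The other subunit genes were not called. Eif3a, the largest subunit, was at 194, 196, 220 and 196 RPKM in the order control 1 and 2, Hnrnpk siRNA 1 and 2, and was called with length trends removed (log2 change 0.16, adjusted p = 0.0382). Eif3c was at 386, 417, 394 and 391 RPKM and was called lower only under quantile normalization (-0.16, adjusted p = 0.0415). Eif3e was at 229, 240, 259 and 261 RPKM (0.15, adjusted p = 0.0709). The groups of Eif3e did not overlap, but with GC trends removed its log2 change was 0.0013 (adjusted p = 0.986). Eif3i was at 117, 122, 122 and 141 RPKM and was called without Hnrnpk siRNA replicate 1 (0.24, adjusted p = 0.0225). Eif3g (337.1, 337.4, 350 and 352 RPKM), Eif3h (351, 358, 343 and 385 RPKM) and Eif3m (103, 111, 107 and 117 RPKM) had log2 changes of 0.06, 0.03 and 0.06, each turning negative under quantile normalization. Eif3j, a loosely bound subunit, had the lowest level (5.41, 6.24, 5.70 and 6.47 RPKM). The transcripts of Eif3e, Eif3h, Eif3j and Eif3m share over 50% of their length with other annotated genes, so their levels are uncertain.

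**Figure D2:**
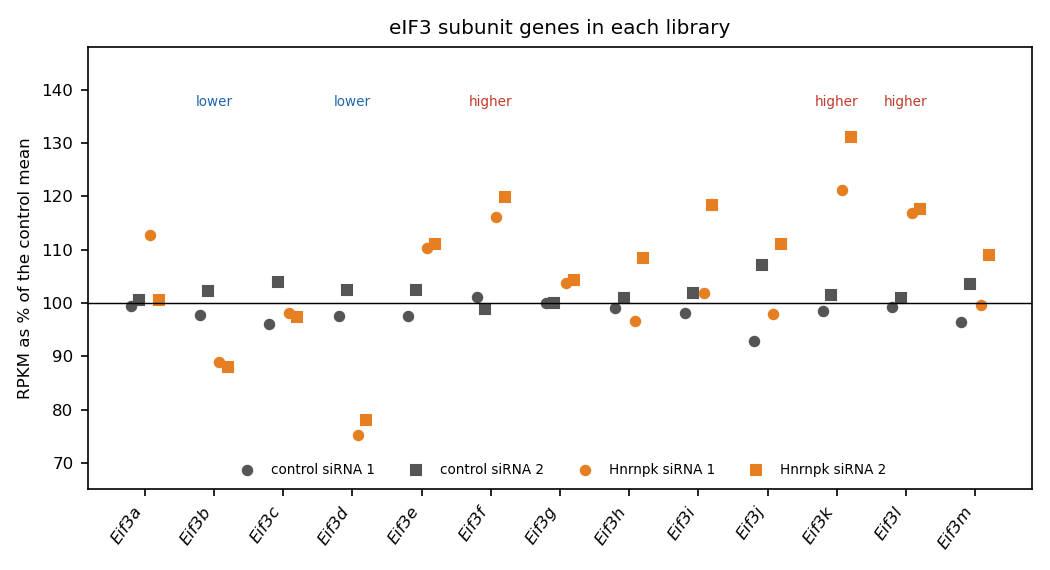
RPKM of the 13 eIF3 subunit genes in each of the 4 libraries, as a percentage of the mean of the 2 control libraries, with the limma call written above. Eif3d and Eif3b lie below the controls in both Hnrnpk siRNA libraries, while Eif3f, Eif3k and Eif3l lie above them.

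The helicase genes gave the largest rise of the family, although its rank depended on the processing. Eif4a2, one of the mRNA-unwinding eIF4A helicases, was at 56.3 and 54.2 RPKM with control siRNA and 78.6 and 84.1 RPKM after knockdown, 47.2% higher on the means (log2 change 0.55, SE 0.0644, limma adjusted p = 5.13e-05). With GC trends removed the log2 change of Eif4a2 was 0.41, below the 0.48 of Eif4ebp3. With length trends removed it was 0.52, below the 0.58 of Eif4g2. Eif4a1, the close paralog of Eif4a2 and usually the main form in dividing cells, was at 100.05 and 100.03 RPKM and then at 122 and 138 RPKM (0.37, SE 0.0720, adjusted p = 0.00133). Eif4a3, a helicase of the exon junction complex rather than of initiation, was at 263 and 275 RPKM and then at 236 and 251 RPKM (-0.14, adjusted p = 0.0875). It was called lower under quantile normalization (-0.22, adjusted p = 0.00471) and with length trends removed (-0.19, adjusted p = 0.0117). Both initiation helicases were higher, and the Eif4a3 share of the summed level of the set went from 63.4% ± 0.958 to 53.6% ± 0.669 (SD, n = 2 each).

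Between the 2 helicases of initiation the balance shifted less. Eif4a2 made up 36.0% and 35.2% of their summed RPKM with control siRNA and 39.2% and 37.9% after knockdown. The transcript of Eif4a1 shares 68.8% of its length and that of Eif4a3 95.7% with other annotated genes, so these shares are uncertain. Other genes on the same strand, Snora81 and Snord2 among them, cover 9.63% of the exonic bases of Eif4a2. For Eif4a1 the same-strand overlap is 6.62%. Eif4h, which stimulates the helicase, rose from 208 and 198 RPKM to 237 and 253 RPKM (0.27, SE 0.0684, adjusted p = 0.00588), and by 0.18 under quantile normalization. Eif4b, the other helicase cofactor, overlapped between groups at 256, 231, 250 and 243 RPKM.

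Both tested cap-binding genes were lower. Eif4e, the cap-binding subunit of eIF4F, was at 85.9 and 85.8 RPKM and then at 75.1 and 77.8 RPKM (log2 change -0.17, SE 0.0605, limma adjusted p = 0.0337). The control libraries differed by far less than the groups did, yet the call was lost under 6 of the 14 alternatives, including the omission of any 1 library (adjusted p = 0.058 to 0.15) and the removal of length trends (-0.10, adjusted p = 0.134). With GC trends removed it was -0.31 (adjusted p = 0.0024). Eif4e2, encoding the cap-binding protein 4EHP that represses translation, was at 43.5 and 44.9 RPKM and then at 33.9 and 34.6 RPKM (-0.36, SE 0.0612, adjusted p = 0.000551) and was called under all 14. Eif4e3 was listed at 0.669, 0.468, 0.227 and 0.204 RPKM and the oocyte-type Eif4e1b at 0.0730, 0.122, 0.0989 and 0.131 RPKM. Neither reached the filter, and no fold or test is given for them.

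The repressors that hold eIF4E showed the largest fall and an opposite rise. Eif4ebp2, a 4E-BP controlled by mTORC1, was at 233 RPKM in both control libraries and at 154 and 138 RPKM after knockdown, so that its mean fell by 37.3% (log2 change -0.67, SE 0.0717, limma adjusted p = 2.92e-05). Across the 14 alternatives its log2 change ran from -0.77 to -0.59. Eif4ebp3 went the other way, from 17.8 and 17.1 RPKM to 24.5 and 23.6 RPKM (0.45, SE 0.0652, adjusted p = 0.000202). Another annotated gene on the same strand, AC115631.1, covers 67.3% of the exonic bases of Eif4ebp3, so its reads may belong in part to that gene.

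Eif4ebp1, by far the most abundant of the 3, was at 811 and 903 RPKM and then at 923 and 986 RPKM. The groups did not overlap but the change was not called (0.16, SE 0.0850, adjusted p = 0.127), and it turned to -0.04 under quantile normalization. The summed level of the 3 genes per Eif4e was 12.4 and 13.4 in the control libraries and 14.7 and 14.8 after knockdown. This ratio was not tested, and the fall of Eif4e, its denominator, lost its call under 6 of the 14 alternatives. Of the summed level of the 3 genes, Eif4ebp1 supplied 76.4% and 78.3% with control siRNA and 83.8% and 85.9% after knockdown, and the share of Eif4ebp2 went from 21.1% ± 1.19 to 13.0% ± 1.40 (SD, n = 2 each). Eif4enif1, encoding the eIF4E transporter 4E-T of P-bodies, fell from 42.4 and 40.7 RPKM to 34.8 and 34.9 RPKM (-0.25, SE 0.0614, adjusted p = 0.00519). Summed with the 3 genes above, the level overlapped between groups, at 1104 and 1194 RPKM with control siRNA and 1137 and 1183 RPKM after knockdown.

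The eIF4G scaffolds diverged. Eif4g2 encodes DAP5, a scaffold that lacks the eIF4E-binding site and is needed for embryonic stem cells to differentiate, and it was at 201 and 228 RPKM and then at 294 and 296 RPKM (log2 change 0.46, SE 0.0754, limma adjusted p = 0.000448). Eif4g1, the main eIF4F scaffold, was at 174 and 181 RPKM and then at 167 and 157 RPKM (-0.13, adjusted p = 0.0957). It was called lower only under quantile normalization (-0.25, adjusted p = 0.00474). Eif4g3, the minor scaffold, fell from 13.1 and 12.4 RPKM to 10.9 and 10.0 RPKM (-0.28, SE 0.0744, adjusted p = 0.00798). That fall was not called without Hnrnpk siRNA replicate 2 (-0.22, adjusted p = 0.0888) and was smaller with length trends removed (-0.16, adjusted p = 0.0434). The ratio of Eif4g2 to Eif4g1 was 1.16 and 1.26 in the control libraries and 1.77 and 1.89 after knockdown, so that Eif4g2 went from 53.0% ± 1.59 to 63.2% ± 1.12 of the set (SD, n = 2 each).

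**Figure D3:**
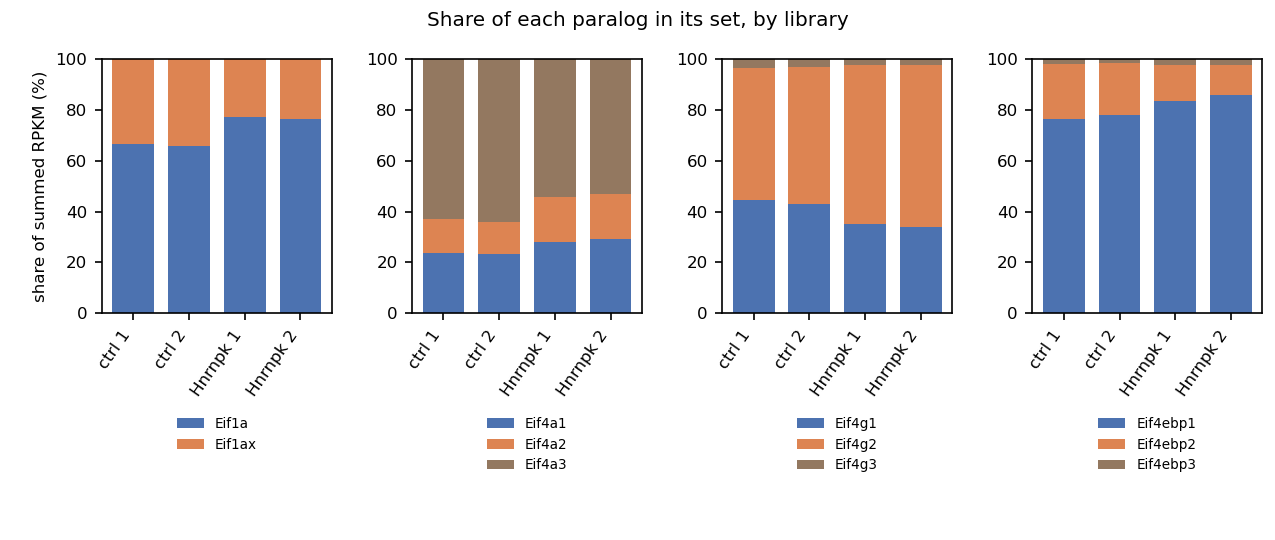
Share (%) of each paralog in the summed RPKM of its set, in each of the 4 libraries (control siRNA 1 and 2, Hnrnpk siRNA 1 and 2). Eif1a, Eif4a1 with Eif4a2, Eif4g2 and Eif4ebp1 hold larger shares in both Hnrnpk siRNA libraries than in either control library.

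Of the late-acting factors only Eif5b was called. Its product, the GTPase that joins the large ribosomal subunit, had transcripts at 41.1 and 44.1 RPKM and then at 59.5 and 52.7 RPKM (log2 change 0.39, SE 0.0753, limma adjusted p = 0.00128). On the opposite strand, Rev1 overlaps 16.8% of the exonic bases of Eif5b. Eif5, the GTPase activator of eIF2, was at 132, 142, 142 and 139 RPKM (0.04, adjusted p = 0.579). Eif6, which keeps the ribosomal subunits apart, was at 97.0, 112, 105 and 114 RPKM (0.07, adjusted p = 0.472). Both turned negative under quantile normalization, to -0.07 and -0.03.

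Eif5a, whose hypusine-bearing product acts mainly in elongation, was the most abundant member at 1337 and 1391 RPKM with control siRNA and 1382 and 1490 RPKM after knockdown. It was not called (log2 change 0.07, SE 0.0840, adjusted p = 0.456), but quantile normalization turned it to a called fall of -0.33 (adjusted p = 0.000306). The Eif5a transcript shares 32.2% of its length with other annotated genes, so its level is uncertain. The paralog Eif5a2 was at 7.12, 6.37, 7.10 and 6.84 RPKM (0.05, adjusted p = 0.637), under 1% of the pair in every library. The plot of the largest rises and falls gives the value of each gene in each library.

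**Figure D4:**
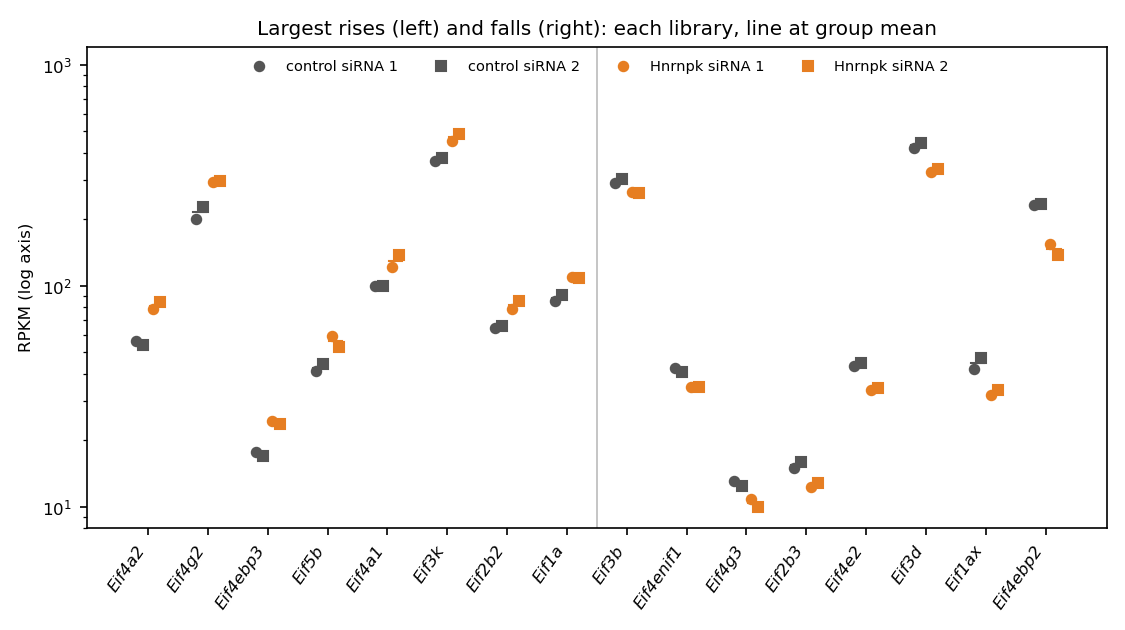
RPKM (log axis) in each of the 4 libraries for the 8 largest rises (left) and 8 largest falls (right) among called members, with a line at each group mean. In all 16 genes both Hnrnpk siRNA libraries lie on the same side of both control libraries, from Eif4a2 (55.3 to 81.3 RPKM on the means) to Eif4ebp2 (233 to 146 RPKM).

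Members called lower were on the median less abundant and longer than those called higher, with a similar base composition. The median of mean RPKM was 98.8 for the 13 members called higher, 39.2 for the 9 called lower and 125 for the 25 not called. The median GC content of the longest coding transcript was 49.8%, 50.2% and 50.1% in the same order, and the median length 2542, 3754 and 2025 bases. No test was made of these differences. The 49 genes lie on 18 chromosomes.

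Other genes that act in translation were grouped by function, and each of those said below to have risen or fallen passed limma at an adjusted p under 0.05. The counts stand beside the 67.2% of all genes that were called, 32.2% higher and 35.0% lower, and no list was tested as a set. Partners of initiation outside the Eif symbols had 9 of 29 tested genes higher and 7 lower, 55.2% called, with a median log2 change of 0.07. Bzw2 and Bzw1, whose products mimic part of eIF5, moved apart, to log2 changes of -0.70 and 0.46 (limma adjusted p = 8.78e-06 and 0.000268). Larp1, which binds mRNAs with a 5′ terminal oligopyrimidine tract downstream of mTORC1, fell (-0.48), and Wibg, an exon junction complex partner, rose (0.58). Elongation and termination factors had 6 of 21 higher and 6 lower, 57.1% called, with a median of 0.04. Among them Eef2k, the kinase that inhibits eEF2, fell (-0.92), as did Eef1a2 (-0.76) and the release factor gene Gspt1 (-0.28), while Dohh, an enzyme of hypusine synthesis on eIF5A, rose (0.52).

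Aminoacyl-tRNA synthetases had 2 of 23 genes higher and 11 lower, 56.5% called, with a median of -0.15. Tarsl2 (-1.06), Eprs (-0.85), Lars (-0.70) and Vars (-0.59) had the lowest p-values. Mitochondrial translation factors had 2 of 12 higher and 8 lower, 83.3% called, with a median of -0.34, led by Guf1 (-1.17), the mitochondrial initiation factor gene Mtif2 (-0.84), Gfm2 (-0.55) and Tsfm (-0.40). Against these lists the initiation factors had a median of 0.06. In size the log2 change had a median of 0.15 for the initiation factors and 0.20 for their partners. That median size was 0.20 for elongation and termination factors, 0.22 for synthetases and 0.34 for mitochondrial translation factors. The differences between lists were not tested.

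Regulators of initiation were covered by a pair of lists. Of 16 genes for the eIF2 alpha kinases, phosphatase subunits and their effectors, 11 were higher and 3 lower, 87.5% called, with a median log2 change of 0.30. Ddit3, a transcription factor gene of the stress response, rose from 4.82 and 11.2 RPKM to 60.0 and 68.1 RPKM. Atf4, of the same list, overlapped between groups, at 188 and 306 RPKM with control siRNA and 305 and 333 RPKM after knockdown. It was not called (0.41, limma adjusted p = 0.0629). Ppp1r15a, the stress-inducible phosphatase subunit gene, rose by 0.52 and Impact, an inhibitor of the kinase GCN2, by 0.62, while Eif2ak4, which encodes GCN2, fell from 10.8 and 10.2 RPKM to 6.69 and 6.68 RPKM (-0.61). For the mTORC1 pathway 8 of 26 genes were higher and 11 lower, 73.1% called, with a median of -0.05. Rragc (1.12) and Ddit4 (1.33), an inhibitor of mTORC1, rose, and Rragb (-1.12) and Rptor (-0.81), the gene of the mTORC1 subunit raptor that binds 4E-BPs, fell. RNA levels do not report the activity of these kinases.

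**Figure D5:**
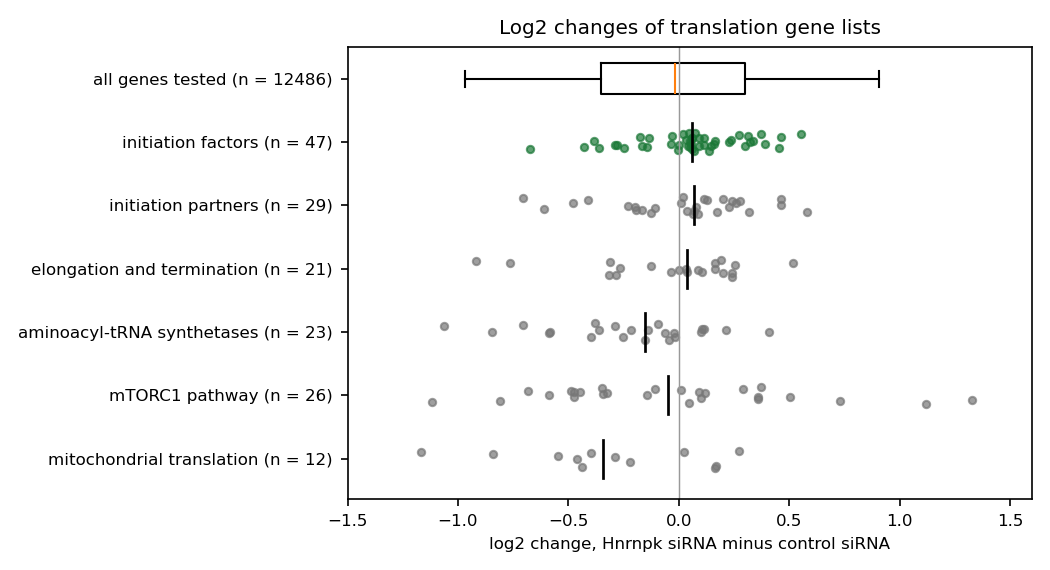
Log2 change (Hnrnpk siRNA minus control siRNA) of each tested gene in 6 translation gene lists, with a vertical line at each list's median, and a box for all 12486 genes tested (quartiles, whiskers at percentiles 5 and 95, which are -0.97 and 0.91). The 47 initiation factor genes lie between -0.67 and 0.55.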

How the data were processed

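RNA-seq values for 4 libraries were used: control siRNA (n = 2) and Hnrnpk siRNA (n = 2). Per gene, the authors deposited RPKM, with 1 column per library. BWA, SAMtools and the mm9 build are named, without roles, in the submitters' processing notes. The counting tool, annotation and strandedness were not given in the sources used here, and the labels' protocols mention both rRNA depletion and poly(A) selection. Read counts were not recovered, so no count model was used. Relative depth came from the commonest ratio between low values of 2 libraries.

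Values were analysed as log2(RPKM + 0.5), which understates changes of low genes. Those averaging at least 0.5 RPKM were fitted with limma 3.58.1 (R 4.3.3, mean-variance trend, 7.47 prior degrees of freedom, two-sided), with Benjamini-Hochberg adjustment over all 12486, and called at an adjusted p under 0.05. The fit was tested on simulated data. GC content, lengths, overlaps and shared sequence came from GENCODE M21 (GRCm38) by identifier, which held all 49 members and 20551 (92.8%) of all genes, and sharing was read with BLAST 2.17.0 (at least 95% identity over at least 100 bases). Overlaps on that annotation may differ from those on the authors' own.

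Each member was named. Values in all libraries were given for the 8 largest rises and falls, paralog sets and members whose call changed under an alternative. Up to 4 genes of lowest p were named per list of translation genes and regulators. Atf4 was named in addition from the list of eIF2 alpha kinases, phosphatase subunits and effectors. From the marker lists and the eIF1A-like genes, other genes were named as well. The members and lists were chosen with earlier results of these data known. The alternatives were other added values, filters, scalings and variance models, removal of GC or length trends, a replicate block, and leaving out each library. Same-numbered libraries did not deviate together (correlation across genes 0.0267), and no label ties them.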

Additional observations from a re-analysis of the deposited data

How the results depend on the processing

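The count of members called higher (13) lay between 10 and 15 and that of members called lower (9) between 6 and 13 over the 14 alternatives, and the genes called in the whole table between 6792 and 9660 against 8396. The lowest counts of members were 10 higher under quantile normalization and 6 lower without Hnrnpk siRNA replicate 2, and quantile normalization gave the highest count lower (13). Of the 22 called members, 16 kept their call under every alternative, 10 higher and 6 lower. With the replicate block 14 members were called higher, Eif3e being added (adjusted p = 0.0496), 9 lower, and 8622 genes in all. No other member's call changed under the block. The ratio of the summed level of all members (1.05) was 0.937 under quantile normalization, 1.06 under median-ratio scaling and 1.03 to 1.07 without single libraries. With 1 library left out, the lone library of its group is assumed to vary like the others.

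Members that were not called changed sign as follows, with log2 changes under quantile normalization Eif2s1 -0.10, Eif3a -0.036, Eif3g -0.10, Eif3h -0.11, Eif3m -0.043, Eif4b -0.053, Eif4ebp1 -0.040, Eif5a -0.33, Eif1 -0.011, Eif1ad -0.0063, Eif5 -0.067, Eif6 -0.031. Under removal of GC trends Eif2s1 -0.13, Eif2s3x -0.028, Eif2b4 0.084, Eif3j -0.051, Eif3m -0.023, Eif5a2 -0.13, Eif5 -0.081. Under removal of length trends Eif3g -0.0047, Eif3h -0.020. Under median-ratio scaling Eif2b4 0.0070. Of these Eif5a under quantile normalization was called. Where leaving out a single library changed a sign, the range over those 4 fits was Eif2s1 -0.079 to 0.083, Eif2s3x -0.011 to 0.13, Eif2b1 -0.017 to 0.12, Eif2b4 -0.030 to 0.026, Eif3c -0.088 to 0.024, Eif3h -0.051 to 0.12, Eif3j -0.035 to 0.15, Eif3m -0.0056 to 0.12, Eif4b -0.054 to 0.10, Eif5a2 -0.029 to 0.12, Eif1ad -0.020 to 0.12, Eif5 -0.0073 to 0.093, Eif6 -0.037 to 0.17. The cause of these changes was not tested. Eif4e3 and Eif4e1b lie under the filter on mean RPKM and were not tested, and 2 libraries per group limit every test.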
